A study of Mus musculus with 49 samples.

Results

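The cytosolic ribosomal protein genes encode the protein part of the ribosomes that translate nuclear-encoded mRNAs. They were picked by symbol: Rpsa, Rplp0, Rplp1, Rplp2, and every Rpl or Rps followed by a number and at most a single letter, l or x, without pseudogene names ending in -ps and without the Rps6k kinases. Of 45252 rows in the count table, 84 symbols met the name rule and 80 of these reached at least 10 counts in at least 10 mice. The 4 that did not were Rpl10l, Rpl32l, Rpl39l and Rpl3l, and all but Rpl3l peaked below 10 counts in every mouse. All 80 members had at least 10 counts in every one of the 49 mice, so no member entered through the group where it was high. In the RefSeq annotation 77 of the 80 are protein coding, Rpl6l and Rpl32p are pseudogenes and Rps4l is a transcribed pseudogene.

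Neocortical mRNA was sequenced from 49 mice, 1 library per animal, to ask whether vaccination against peptides of TDP-43, an RNA-binding protein that aggregates in amyotrophic lateral sclerosis, alters the cortical transcriptome of rNLS8 mice. rNLS8 mice are bigenic: they carry NEFH-tTA, a tetracycline transactivator driven by the neurofilament heavy chain promoter, and tetO-hTDP-43ΔNLS, a human TDP-43 whose nuclear localization signal is disabled, so that neurons make cytoplasmic human TDP-43 once doxycycline is withdrawn. The ctrl-PBS group (17 mice, 10 female and 7 male) was monogenic and received PBS. These littermates carried a single transgene and did not express the human protein, and which of the alleles each carried is not given in the sources used here. The TDP-PBS group (10 mice, 4 female and 6 male) was bigenic and received PBS. The TDP-10+12 group (10 mice, 6 female and 4 male) was bigenic and received peptides 10 and 12 of the glycine-rich domain. The TDP-15 group (12 mice, 5 female and 7 male) was bigenic and received peptide 15, which carries phosphorylated serines from the C-terminal end of the protein. All these peptides were conjugated to ovalbumin. All 49 mice were of mixed C57BL/6J x C3H/HeJ descent and were first injected at 8 weeks of age. They had 5 injections (40 µg peptide, or PBS in its place) before and 1 after doxycycline was withdrawn from the chow at 25.5 weeks, and tissue was taken 3 weeks later at 28.5 weeks. No monogenic mouse with peptides was analysed here, so vaccination was compared only within bigenic mice.

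A mammalian ribosome has a small subunit, whose proteins carry the Rps names and which decodes the mRNA, and a large subunit, whose proteins carry the Rpl or Rplp names and which joins amino acids. The proteins are needed in equal number per ribosome, except for the acidic stalk proteins, and unassembled ones are degraded. Their mRNAs begin with a C followed by a run of pyrimidines at the 5′ end, the TOP tract, through which the kinase mTORC1 and the protein Larp1 control their translation and stability.

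That start was looked for in RefSeq promoter sequences (build GRCm38.p6), which held 68 annotated starts for 57 of the 80 members. A C at the annotated start followed by at least 4 bases that were C or T was present at 13 of these 68 starts (19.1%), against 823 of 32851 starts of all genes (2.51%). With such a run beginning anywhere within 10 bases of the start, read in the sense of the mRNA, the shares were 54.4% of the members' starts and 30.7% of all starts. The windows below run from 15 bases before to 15 bases from the annotated start, written 5′ to 3′ in the sense of the mRNA, with the tract in capitals. They show members that carry the tract at the start and had large (Rps21, Rplp2), middling (Rps10, Rpl15) or small changes (Rps6, Rps15a), and members without it that rose most (Rpsa), stood among the P-stalk genes (Rplp0) or were not called (Rps7, which has a run within 10 bases but not at the start).
Rps21: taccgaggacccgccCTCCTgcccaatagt
Rplp2: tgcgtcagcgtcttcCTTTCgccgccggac
Rps10: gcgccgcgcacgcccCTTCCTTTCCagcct
Rpl15: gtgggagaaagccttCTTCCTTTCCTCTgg
Rps6: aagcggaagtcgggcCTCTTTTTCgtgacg
Rps15a: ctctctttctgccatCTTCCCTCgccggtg
Rpsa: gtgggttatttaaggacgtcatttccggcc
Rplp0: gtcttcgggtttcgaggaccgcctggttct
Rps7: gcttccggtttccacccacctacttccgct
Their positions are chr2:180257364-180257393 (plus strand) for Rps21, chr7:141447636-141447665 (plus) for Rplp2, chr17:27635230-27635259 (minus) for Rps10, chr14:18270972-18271001 (minus) for Rpl15, chr4:86857353-86857382 (minus) for Rps6, chr7:118116133-118116162 (minus) for Rps15a, chr9:120127751-120127780 (plus) for Rpsa, chr5:115559452-115559481 (plus) for Rplp0 and chr12:28635939-28635968 (minus) for Rps7. A missing tract says only that these letters are not at the annotated start. In TDP-PBS against ctrl-PBS the 35 members with a tract within 10 bases of a start had a median log2 fold change of 0.45 and 30 were called higher, and the 22 without it had a median of 0.49 and 21 were called higher.

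Library totals ran from 17775738 to 21033608 counts per mouse. Levels are CPM (counts divided by library size, on the usual CPM scale), with library sizes scaled by the trimmed mean of M values (TMM). A gene was called higher or lower at an adjusted p under 0.05 in edgeR's quasi-likelihood test over 18220 genes. The mouse Tardbp row, the gene for TDP-43, stood at 120 to 160.4 CPM in ctrl-PBS and at 91.9 to 137 CPM in TDP-PBS, and was called lower in all 3 rNLS8 groups, by 0.24 to 0.30 on the log2 scale. The human transgene has no row of its own. Among cell type markers, 6 of 8 for microglia were higher in TDP-PBS, beside 21.9% of all genes. Their summed level there did not overlap ctrl-PBS (300.0 to 429.98 against 244 to 286 CPM). In TDP-10+12 (252.5 to 417 CPM) and TDP-15 (264 to 535 CPM) it did, with 6 of 8 markers higher and 1 lower in each. For neurons 6 of 8 were lower in TDP-PBS, beside 21.6% of all genes, with sums of 6730 to 9240.2 against 9665 to 13342 CPM. The neuron sums were 6816 to 9075 CPM in TDP-10+12 and 7482 to 8919 CPM in TDP-15, with 6 of 8 lower in each. Of the other lists in TDP-PBS, 1 of 8 astrocyte markers was higher (Gfap) and 2 lower. There 1 of 8 oligodendrocyte markers was higher, and 1 of 8 endothelial markers was higher and 1 lower.

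The cytosolic ribosomal protein mRNAs rose together in rNLS8 mice. Their summed level was 5941 to 7708 CPM in the ctrl-PBS mice, with a median of 6520.3, and 7895 to 11821 CPM in the TDP-PBS mice, with a median of 9194. In TDP-10+12 it was 8453 to 10374 CPM (median 8912) and in TDP-15 8282 to 10616 CPM (median 9057). All 32 rNLS8 mice lay above all 17 ctrl-PBS mice, and the 3 rNLS8 groups overlapped each other over most of their range. As a share of all counts the members made up 0.638% ± 0.0415 (SD, n = 17) in ctrl-PBS and 0.943% ± 0.115 (SD, n = 10) in TDP-PBS. In whole tissue, a smaller share of cells of a type and less RNA per cell cannot be told apart, and the part of the microglia and neuron marker shifts given above in these values was not tested.

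**Figure D1:**
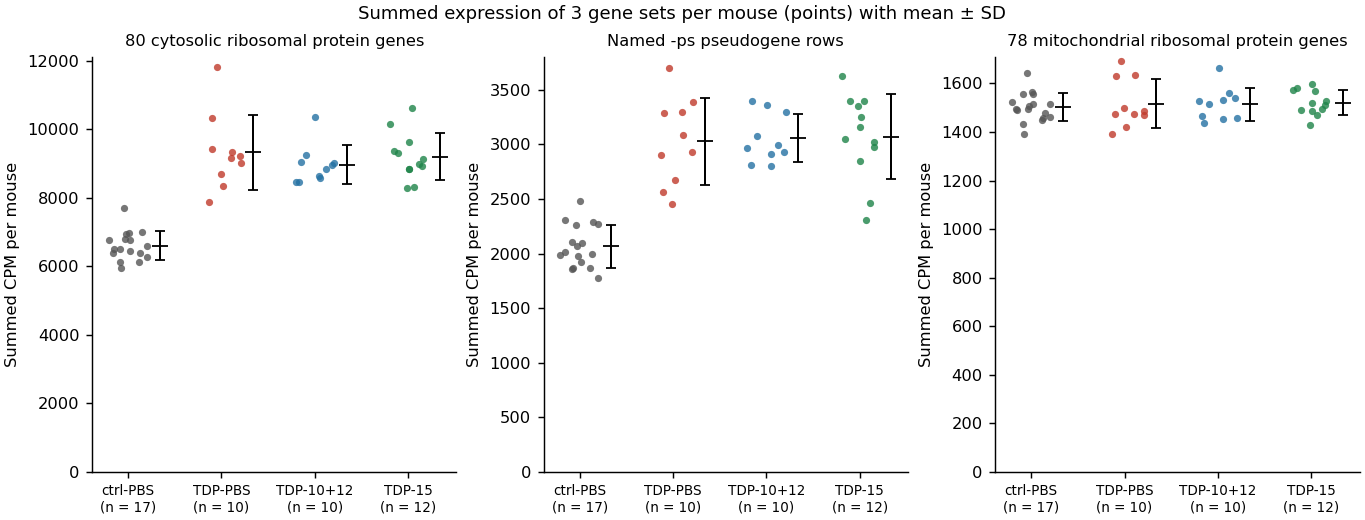
Summed CPM per mouse (points) with mean ± SD (bars) for the 80 cytosolic ribosomal protein genes, the named -ps pseudogene rows and the 78 mitochondrial ribosomal protein genes in the 4 groups. The cytosolic sums run from 5941 to 7708 CPM in ctrl-PBS and from 7895 to 11821 CPM in TDP-PBS, and the mitochondrial sums overlap in all groups.

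In TDP-PBS against ctrl-PBS, 71 of the 80 members were called higher and 0 lower (unadjusted p under 0.05: 72 members), while 21.9% of all genes were called higher and 21.6% lower. Their median log2 fold change was 0.47, a fold of 1.38, against a median of -0.0004 over all genes. In TDP-10+12 against ctrl-PBS, 68 were higher and 0 lower, beside 20.8% and 20.0% of all genes, and the median was 0.42. In TDP-15 against ctrl-PBS, 71 were higher and 0 lower, beside 23.6% and 23.2% of all genes, and the median was 0.44. The 3 comparisons share the same 17 ctrl-PBS mice. Across them 67 members were called higher in all 3, 5 in 1 or 2, and 8 in none. For 18 members every rNLS8 mouse exceeded every ctrl-PBS mouse, as did 1.16% of all genes tested. Among these were Rpl4, Rpl6, Rpl6l, Rpl7, Rpl7a, Rpl10, Rpl12, Rpl17, Rpl18, Rpl24, Rpl28, Rplp0, Rplp2, Rps16, Rps19, Rps23 and Rpsa. The fold was moderate throughout: 19 members exceeded 1.5-fold in TDP-PBS, 56 lay between 1.1 and 1.5 and 5 were below 1.1.

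**Figure D2:**
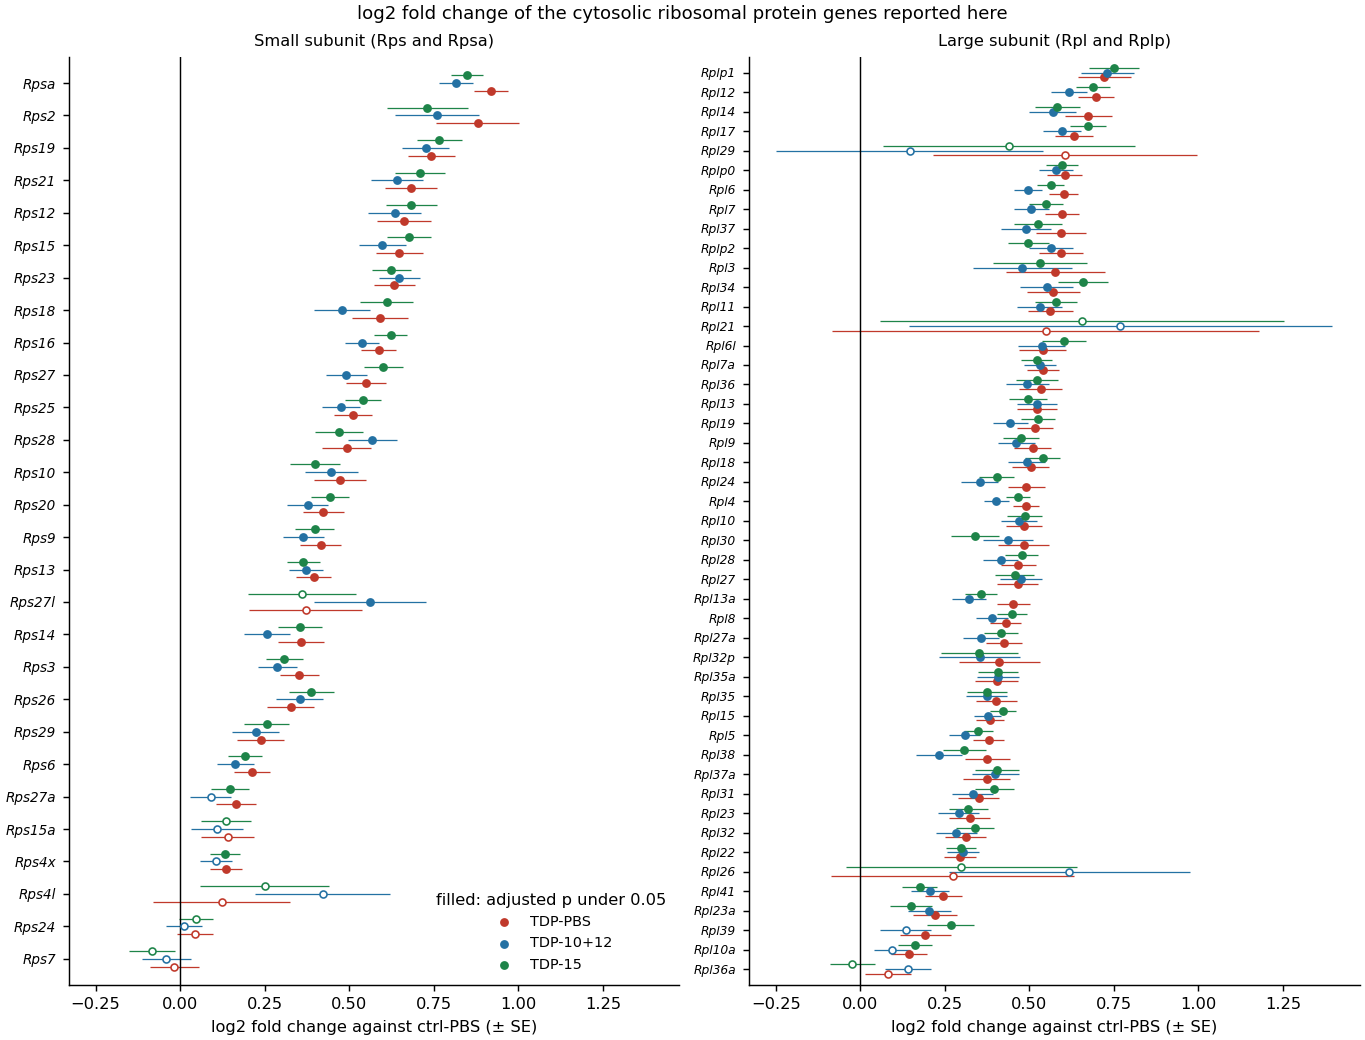
log2 fold change against ctrl-PBS (horizontal axis, ± SE) of the small subunit genes (left) and large subunit genes (right) reported here in TDP-PBS (red), TDP-10+12 (blue) and TDP-15 (green), ordered by TDP-PBS, with filled points where the adjusted p was under 0.05. Points run from Rps7 at -0.02 to Rpsa at 0.92 in TDP-PBS, and the widest bars belong to Rpl21, Rpl26 and Rpl29.

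Among the small subunit genes 27 of 32 were called higher in TDP-PBS, beside 21.9% of all genes, with a median log2 fold change of 0.41. A hand-written list of 14 genes was made for the head of the small subunit and its decoding region, where the mRNA is read. All 14 were higher in the 3 comparisons, beside 21.9%, 20.8% and 23.6% of all genes, with a median of 0.59 in TDP-PBS. These values depend on the choice of genes. The list holds Rpsa, which changed most, and leaves out other small subunit genes such as Rps28 (0.49 in TDP-PBS) and Rps27a (0.17).
Rpsa, the laminin receptor protein of the small subunit (chr9:120127766-120132369), had the largest fold change and, counting each gene's own row, the highest level. With named pseudogene copies added, Rps2 stood above it in ctrl-PBS, at a mean of 644 against 437 CPM, and the assignment of reads between genes and copies is uncertain. It stood at 343 to 454 CPM with a median of 392.4 in ctrl-PBS, 581 to 832 with a median of 753 in TDP-PBS, 604 to 864 with a median of 686 in TDP-10+12, and 608 to 802 with a median of 701 in TDP-15. Every rNLS8 mouse lay above every ctrl-PBS mouse. Its log2 fold change in TDP-PBS was 0.92 ± 0.05 (SE; adjusted p = 8.92e-21), in TDP-10+12 0.82 ± 0.05 and in TDP-15 0.85 ± 0.05.
Rps19, a head protein known from Diamond-Blackfan anemia (chr7:24884592-24889811), was at 28.6 to 43.6 CPM in ctrl-PBS, with a median of 35.5, and at 45.4 to 84.3 CPM in TDP-PBS, with a median of 56.2, a log2 fold change of 0.74 ± 0.07. The vaccinated groups spanned 50.5 to 82.1 CPM (TDP-10+12) and 47.9 to 67.7 CPM (TDP-15), with no overlap with ctrl-PBS in any group. Rps23, which sits at the decoding centre, was at 50.1 to 72.2 CPM in ctrl-PBS and at 82.1 to 118 CPM in TDP-PBS (log2 fold change 0.63 ± 0.06), again without overlap.
Rps2, at the mRNA entry, showed the second largest change with a wider spread: 63.5 to 129 CPM in ctrl-PBS and 86.3 to 246 CPM in TDP-PBS (log2 fold change 0.88 ± 0.12, adjusted p = 5.59e-08). Its groups overlapped, with 7 of 10 TDP-PBS mice above every ctrl-PBS mouse. Rps15, another head protein, was at 173 to 281 CPM in ctrl-PBS and 229.6 to 417 CPM in TDP-PBS (0.65 ± 0.07), and 8 of 10 TDP-PBS mice exceeded every ctrl-PBS mouse. Rps12 (0.66 ± 0.08) and Rps21 (0.68 ± 0.08), the other small subunit genes among the 10 largest changes, had 9 of 10 TDP-PBS mice above every ctrl-PBS mouse.

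Among the large subunit genes 44 of 48 were called higher in TDP-PBS, beside 21.9% of all genes, with a median log2 fold change of 0.49. The P stalk is the flexible arm of the large subunit that recruits the elongation factors. Its 4 genes were called higher in all 3 comparisons, beside 21.9%, 20.8% and 23.6% of all genes. Rplp1, an acidic stalk protein, ranged from 169 to 275 CPM around a median of 218 in ctrl-PBS, and from 254 to 458 CPM around a median of 354 in TDP-PBS. Only 1 TDP-PBS mouse fell within the ctrl-PBS range, and the log2 fold change was 0.72 ± 0.08 (adjusted p = 6.87e-11). Rplp2, its partner, was at 26.6 to 36.7 CPM in ctrl-PBS and 37.4 to 61.7 CPM in TDP-PBS (0.59 ± 0.06). Rplp0, on which the acidic proteins are mounted, was at 101 to 126 CPM in ctrl-PBS and 146 to 212 CPM in TDP-PBS (0.60 ± 0.05). Rpl12, at the base of the stalk, was at 56.0 to 75.4 CPM in ctrl-PBS and 78.4 to 118 CPM in TDP-PBS (0.70 ± 0.05). The last 3 did not overlap between ctrl-PBS and any rNLS8 group. In the vaccinated groups the 4 genes changed by 0.56 to 0.73 (TDP-10+12) and 0.50 to 0.75 (TDP-15) on the log2 scale.

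Rpl5 and Rpl11 bind the 5S ribosomal RNA and, outside the ribosome, the p53 regulator Mdm2. Rpl5 rose from 70.1 to 88.6 CPM in ctrl-PBS to 97.6 to 129 CPM in TDP-PBS, a log2 fold change of 0.38 ± 0.05. Rpl11 rose from 62.5 to 93.2 CPM to 93.8 to 152 CPM, a log2 fold change of 0.56 ± 0.07. For each gene the 10 TDP-PBS mice exceeded all ctrl-PBS mice, as they did for 25 of the 80 members. In TDP-10+12, 9 of 10 mice did so for each gene, and in TDP-15 all 12. The share of all genes that separate in TDP-PBS alone was not counted. For all 32 rNLS8 mice it was 1.16%.
Of 9 genes around the exit tunnel, through which the new chain leaves, 8 were higher in TDP-PBS, beside 71 of all 80 members and 21.9% of all genes. Their log2 fold changes ran from 0.19 ± 0.07 for Rpl39 to 0.63 ± 0.06 for Rpl17. The one not called was Rpl26. Rpl4, a tunnel protein and by its own row among the 5 most abundant members, was at 275 to 329.8 CPM in ctrl-PBS and at 389 to 516 CPM in TDP-PBS, with 357 to 438 CPM in TDP-10+12 and 379 to 474 CPM in TDP-15. Its log2 fold change of 0.49 ± 0.04 in TDP-PBS had the smallest error of any member.
Rpl14, the other large subunit gene among the 10 largest changes, was at 48.6 to 71.6 CPM in ctrl-PBS and 67.5 to 116 CPM in TDP-PBS (0.67 ± 0.07). Per kilobase of transcript, ctrl-PBS levels of the 79 members with a length spanned 3.06 (Rps27l) to 441 (Rplp1) CPM per kb, with a median of 93.2. Rpsa, the highest in CPM by its own row, stood at 222 CPM per kb.

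**Figure D3:**
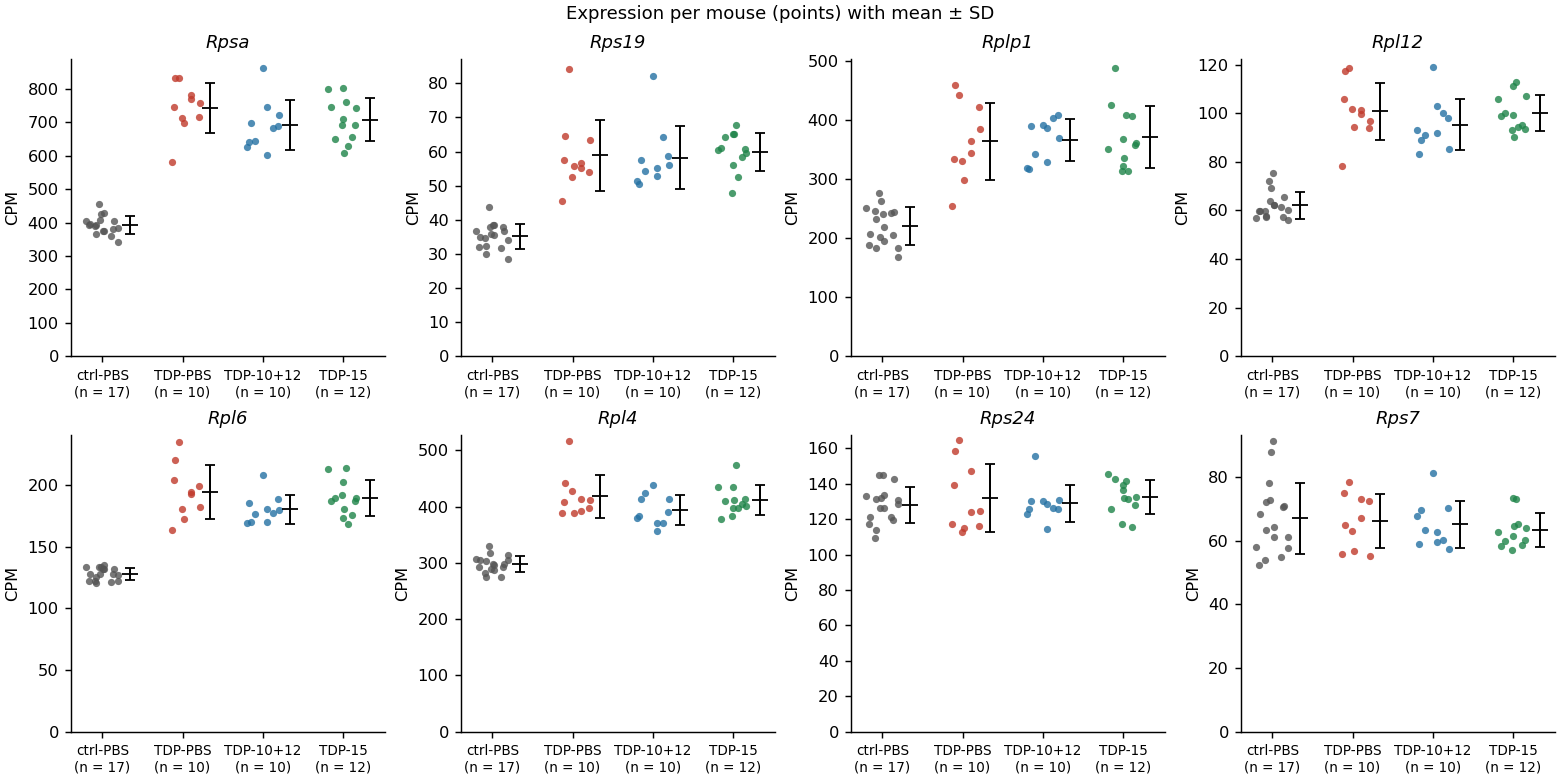
CPM per mouse (points; vertical axes start at 0) with mean ± SD (bars) for Rpsa, Rps19, Rplp1, Rpl12, Rpl6, Rpl4, Rps24 and Rps7 in the 4 groups. The first 6 are higher in all rNLS8 groups, and Rps24 (113 to 165 CPM in TDP-PBS, 109.5 to 145 in ctrl-PBS) and Rps7 overlap ctrl-PBS in all rNLS8 groups.

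A few members stood apart from this shift. Rps7, a small subunit protein (chr12:28630847-28635953), was at 52.6 to 91.4 CPM with a median of 64.4 in ctrl-PBS, 55.3 to 78.6 with a median of 66.1 in TDP-PBS, 57.3 to 81.4 with a median of 63.1 in TDP-10+12, and 57.1 to 73.6 with a median of 62.2 in TDP-15. No rNLS8 mouse exceeded the highest ctrl-PBS mouse, and the log2 fold changes were -0.02, -0.04 and -0.08 (SE 0.07 each; the interval for TDP-PBS ran from -0.16 to 0.13). Rps24, a small subunit protein with known alternative splicing at its end, was at 109.5 to 145 CPM in ctrl-PBS and 113 to 165 CPM in TDP-PBS. Its log2 fold changes were 0.04, 0.01 and 0.05 (interval for TDP-PBS -0.06 to 0.15). Both intervals end well short of the members' median of 0.47. Rps15a was at 43.6 to 71.3 CPM in ctrl-PBS and 51.9 to 76.5 CPM in TDP-PBS (0.14 ± 0.08, adjusted p = 0.141), and was called in none of the 3 comparisons. Rpl36a, on the X chromosome, was at 18.9 to 28.9 CPM in ctrl-PBS and 18.2 to 32.5 CPM in TDP-PBS. Its log2 fold changes were 0.08, 0.14 and -0.02, none of them called.
Rps4x (0.13 ± 0.05), Rpl10a (0.14 ± 0.05), Rps27a (0.17 ± 0.06), Rpl39 (0.19 ± 0.07) and Rps6 (0.21 ± 0.05) were called higher in TDP-PBS with small changes. Rps6, the substrate of the S6 kinases, was abundant, at 123 to 171 CPM in ctrl-PBS and 147 to 229.6 CPM in TDP-PBS. The first 4 of these were called in TDP-15 as well but not in TDP-10+12, where the values were 0.09 to 0.13. The difference between these groups was not called for any of them. With library totals in place of TMM, these 4 were called in TDP-10+12 as well. Rps4x was also called there under several other settings, such as limma-voom.

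Rpl21, Rpl26 and Rpl29 were called in no comparison, and their mice fell into separate levels inside every group. For Rpl21 (chr5:146832890-146837032), 28 mice were at 2.31 to 5.05 CPM and 21 at 20.3 to 63.1 CPM, with none between. The lower level held 10 of 17 ctrl-PBS, 6 of 10 TDP-PBS, 5 of 10 TDP-10+12 and 7 of 12 TDP-15 mice. For Rpl29 (chr9:106428889-106431568), 6 mice were at 7.20 to 9.15 CPM and 43 at 68.6 to 253 CPM. For Rpl26 (chr11:68901566-68904534), 10 mice were at 4.64 to 12.0 CPM and 39 at 31.9 to 106 CPM, and the low mice came from all 4 groups. The step between neighbouring mice was 7.497-fold for Rpl29, 4.03-fold for Rpl21 and 2.66-fold for Rpl26, and it was at most 1.38-fold in all other members but Rps27l (1.52-fold, 1 mouse). The levels divide mice of the same group, so the SE of the log2 fold change was 0.63 for Rpl21, 0.36 for Rpl26 and 0.39 for Rpl29, against a median of 0.06 over the members. The cause was not tested.

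**Figure D4:**
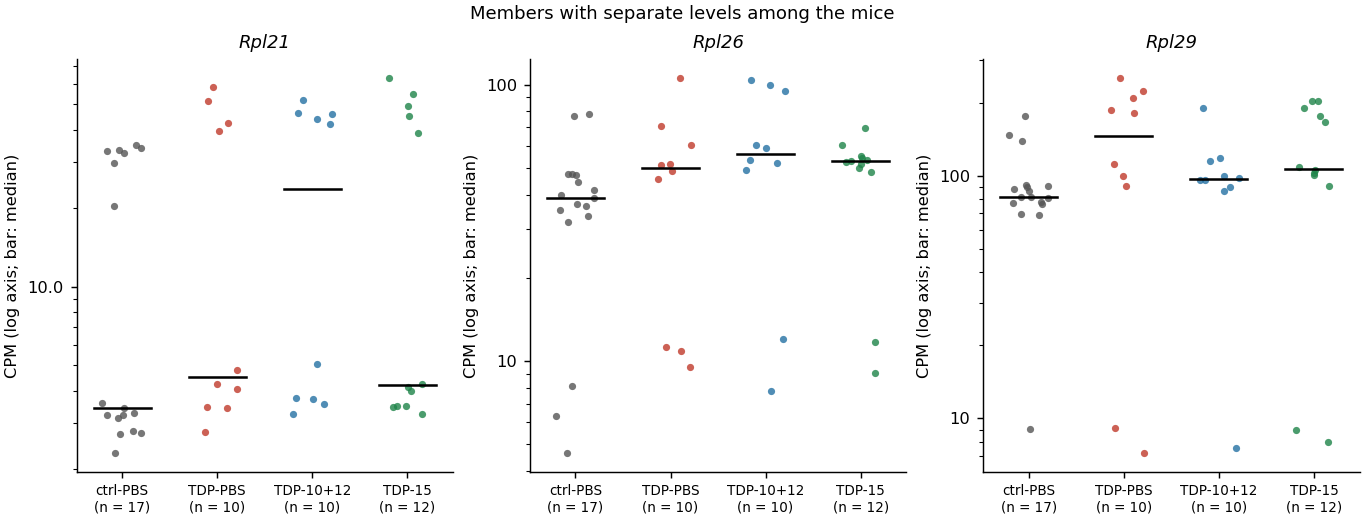
CPM per mouse (points, log axis) with the group median (bar) for Rpl21, Rpl26 and Rpl29 in the 4 groups. In each gene the mice of every group divide into levels, such as 2.31 to 5.05 and 20.3 to 63.1 CPM for Rpl21.

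When the counts of the named -ps pseudogenes were added to their parent genes, the range of Rpl21 narrowed. Near-identical processed copies of ribosomal protein genes are common in the mouse genome, and the assignment of reads between a gene and its copies is uncertain. For 58 members the table holds 234 rows with such names, and the members' own rows carried 75.3% of the combined counts. The copies of 8 members had more counts than the gene itself (Rpl7a, Rpl10, Rpl15, Rpl17, Rpl21, Rpl35a, Rps2 and Rps12), with the gene's own row holding from 12.0% (Rpl17) to 49.97% (Rpl15). Rpl21 with its 4 named copies was at 56.7 to 87.8 CPM in ctrl-PBS and at 83.6 to 147 CPM in TDP-PBS, and was then called higher in all 3 comparisons (0.55 ± 0.10 in TDP-10+12 and 0.58 ± 0.09 in TDP-15). The own rows of Rpl26 and Rpl29 held 99.9% and 97.3% of the combined counts, and their lowest mice stayed at 4.64 and 9.87 CPM. Rps2 with its 10 copies had a log2 fold change of 0.73 ± 0.15 in TDP-PBS. Rps7 with its 2 copies was at 82.6 to 104.9 CPM in ctrl-PBS and 85.1 to 123 CPM in TDP-PBS, with a log2 fold change of 0.07 ± 0.05 (adjusted p = 0.272), still not called. With each member summed with its copies, 72 of 80 were higher in TDP-PBS, 69 in TDP-10+12 and 72 in TDP-15. Of the 110 -ps rows in the test, 65 were higher and 0 lower in TDP-PBS, with a median log2 fold change of 0.41. Of all genes, 21.9% were higher and 21.6% lower there.

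Some ribosomal protein genes have a second copy with its own symbol, including the transcribed pseudogene Rps4l, and not all of these copies were expressed here. Of 8 such copies listed, 5 were in the test, and 1 was called higher in TDP-PBS, 2 in TDP-10+12 and 2 in TDP-15 (all genes: 21.9%, 20.8% and 23.6%). Rps27l, a p53-regulated copy of Rps27, was the lowest member at 0.905 to 2.24 CPM in ctrl-PBS, 1.08 to 4.81 in TDP-PBS, 1.97 to 3.15 in TDP-10+12 and 1.23 to 3.17 in TDP-15. In the main fit it was called higher only in TDP-10+12 (0.56 ± 0.17, adjusted p = 0.00495), and no difference among the rNLS8 groups was called. The call depends on the setting. With library totals in place of TMM, edgeR's test also called Rps27l in TDP-PBS (adjusted p = 0.0306) and TDP-15 (adjusted p = 0.0193). Other alternatives, such as limma-voom (adjusted p = 0.0495), called it in TDP-15 too. Its parent Rps27 was at 57.8 to 80.9 CPM in ctrl-PBS and 76.3 to 129 CPM in TDP-PBS (0.55 ± 0.06). Rps4l, at 4.20 to 22.6 CPM in ctrl-PBS and 5.78 to 20.6 CPM in TDP-PBS, was not called (0.12 ± 0.20), and its parent Rps4x was. Of the copies outside the name rule, Rpl7l1 was higher (0.15 ± 0.06), and Rpl22l1 (0.19 ± 0.09, adjusted p = 0.102) and Rpl36al (0.09 ± 0.07, adjusted p = 0.344) were not called in TDP-PBS. Rpl22l1 was called higher in TDP-15 (0.28 ± 0.09, adjusted p = 0.00826). The parents Rpl3 (0.58 ± 0.15), Rpl7 (0.60 ± 0.05), Rpl10 (0.48 ± 0.05) and Rpl22 (0.29 ± 0.05) were higher, so that 7 of 8 parents were called, all but Rpl36a. Fau, which like Rps27a encodes a ribosomal protein fused to ubiquitin or a ubiquitin-like protein, was higher. It rose from 25.3 to 52.1 CPM to 43.5 to 71.1 CPM (0.56 ± 0.08). Rack1, a scaffold on the small subunit, was higher as well (0.28 ± 0.05). Rps3a1, with 38.4 to 117 CPM in ctrl-PBS and 41.9 to 128 CPM in TDP-PBS, was not called there (0.23 ± 0.19) but was in TDP-15 (0.49, adjusted p = 0.0203).

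Among the rNLS8 groups no member was called. TDP-10+12 against TDP-PBS had 0 members called (0% of all genes; 3 members and 953 of 18220 genes at an unadjusted p under 0.05), with a median log2 fold change of -0.04 over the members. Without the highest TDP-PBS and the highest ctrl-PBS mouse the median was 0.008. Leaving out the highest mouse of TDP-PBS but none of the vaccinated groups tends by itself to raise differences against TDP-PBS. No conclusion is drawn from it. The smallest p values belonged to Rpl13a (-0.13, interval -0.24 to -0.02), Rpl24 (-0.14, -0.26 to -0.02) and Rpl6 (-0.11, -0.20 to -0.01), each with an adjusted p of 0.926. Rpl13a lay at 136 to 195 CPM in TDP-PBS and 132 to 164 CPM in TDP-10+12, which overlap. TDP-15 against TDP-PBS also had 0 called (0% of all genes; 0 members and 552 genes at an unadjusted p under 0.05), with a median of -0.004, or 0.04 without the same mice, and Rpl13a, Rpl30 and Rpl24 came first at -0.10, -0.14 and -0.09. TDP-10+12 against TDP-15 had 0 called (0% of all genes; 1 member, Rpl36a, and 1244 genes at an unadjusted p under 0.05), with Rpl36a at 0.16 (adjusted p = 0.677), Rps27 at -0.11 and Rpl39 at -0.13. A p that misses the threshold does not show equal levels: for 75, 76 and 75 of the 80 members the 95% interval of these 3 differences lay within ±0.5, and the median half-width was 0.14, 0.13 and 0.13 on the log2 scale.
In the PBS mice, 0 members had a genotype by sex interaction by edgeR's test (0% of 17363 genes), and 5 members had an unadjusted p under 0.05. The smallest p was that of Rpl23 (interaction -0.29 ± 0.12, adjusted p = 0.761).

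Lists of genes that work beside the cytosolic ribosome are given here against the 21.9% of all genes called higher and 21.6% called lower in TDP-PBS. The 78 mitochondrial ribosomal protein genes, whose products build the separate ribosome of mitochondria, had 18 higher and 11 lower in TDP-PBS, with a median log2 fold change of -0.01, so the share called higher was near that of all genes. Their summed level was 1393 to 1642 CPM in ctrl-PBS and 1393 to 1694 CPM in TDP-PBS. Mrpl50 (0.46 ± 0.05) and Mrpl9 (0.41 ± 0.06) rose most and Mrpl16 (-0.45 ± 0.07) and Mrpl53 (-0.33 ± 0.08) fell most. Of 74 ribosome assembly genes 37 were higher and 4 lower (median 0.13), led by Sdad1 (0.66 ± 0.07) and Riok2 (0.60 ± 0.07), with Noc4l (-0.26 ± 0.06) and Noc2l (-0.15 ± 0.04) falling most. Of 14 genes of RNA polymerase I and its factors, which transcribe the ribosomal RNA, 5 were higher and 2 lower. Polr1a, the largest subunit, was at 0.31 ± 0.05 and Twistnb at 0.52 ± 0.07, while Ubtf, its upstream binding factor, fell by 0.28 and Polr1d by 0.20 on the log2 scale.
Of 40 initiation factor genes 18 were higher and 5 lower (median 0.09). Pabpc1, the cytoplasmic poly(A)-binding protein (0.50 ± 0.04), and Eif3f (0.42 ± 0.05) rose most, and Eif4h (-0.30 ± 0.03) and Eif1ax (-0.19 ± 0.05) fell most. Of 11 elongation genes 4 were higher and 0 lower (median 0.10), with Eif5a2 (0.56 ± 0.05) and Eef1g (0.31 ± 0.05) rising most. Among 19 genes of mTORC1 and of TOP mRNA control, 7 were higher and 4 lower (median 0.04), and the share called lower was near that of all genes. Larp1, which binds the TOP tract, rose by 0.39 ± 0.04, and Eif4ebp1, a translational repressor, by 0.62 ± 0.10, while Deptor, an mTOR inhibitor, fell by 0.50 and Mycn by 0.42 on the log2 scale. Of 12 genes tested from a hand-written ribosome quality control list, 3 were higher and 2 lower, near the shares of all genes. Gcn1 (0.17 ± 0.05) and Nemf (0.15 ± 0.05) rose most, and Tcf25 fell by 0.28 on the log2 scale. Fem1b, which is on the list but is not an established factor of this pathway, fell by 0.21. In TDP-10+12, where 20.8% of all genes were higher and 20.0% lower, 32 of the 74 assembly genes were higher and 5 lower. In TDP-15, where 23.6% of all genes were higher and 23.2% lower, 36 were higher and 8 lower.

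**Figure D5:**
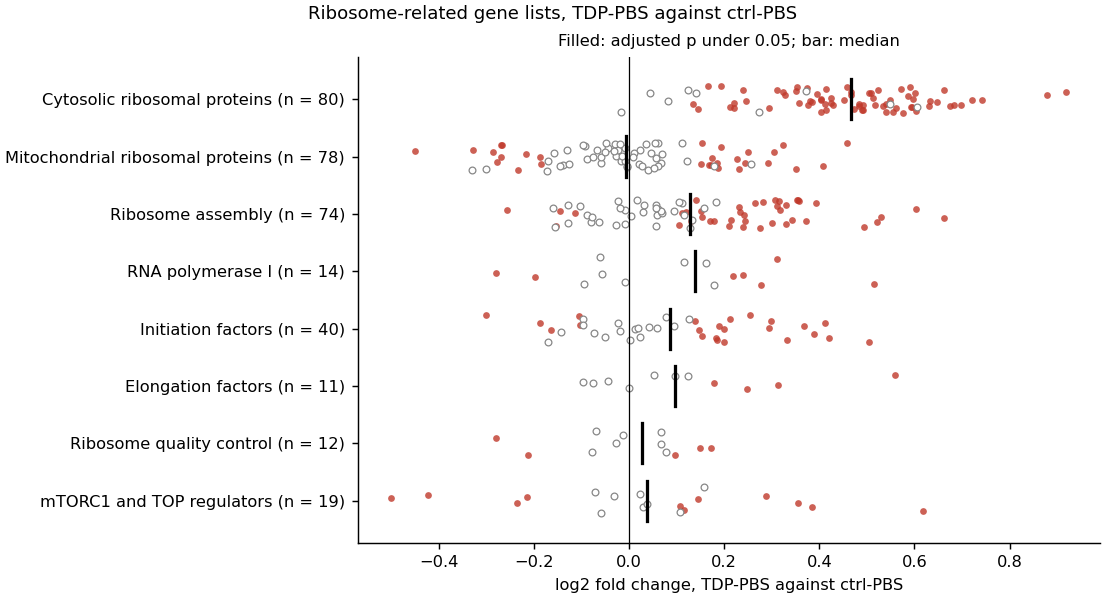
log2 fold change in TDP-PBS against ctrl-PBS (horizontal axis) of each gene (points) in 8 ribosome-related lists, with the list median (bar) and filled points where the adjusted p was under 0.05. The cytosolic ribosomal proteins lie at a median of 0.47, and the other 7 lists have medians from -0.01 to 0.14.

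Ribosomal protein mRNAs are short, so the members were set beside other genes of their length. There were 11 members under 500 bp, with a median log2 fold change of 0.53 in TDP-PBS, and the 472 other genes of that length had a median of -0.04. For 500 to 1000 bp the medians were 0.42 (51 members) and -0.01 (1609 other genes). Among 679 other genes under 1000 bp with at least 10 CPM on average, 183 rose and 174 fell (median -0.01). As a share of all counts, short genes took 4.52% to 5.11% in ctrl-PBS mice and 4.72% to 5.72% in TDP-PBS mice. In TDP-PBS 4 of 10 mice lay above every ctrl-PBS mouse, and the highest was replicate 1. In TDP-10+12 2 of 10 mice did so, and in TDP-15 4 of 12. The part of this shift in the members' rise was not tested. The share of counts on the 2 mitochondrial ribosomal RNA rows also moved, from 0.3003% to 0.527% in ctrl-PBS to 0.416% to 0.628% in TDP-PBS, and its part in the result was not tested.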

How the data were processed

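The authors deposited a table of raw read counts per gene symbol for 49 mice (100 bp paired-end mRNA libraries). The submitters' processing notes name HISAT, HISAT2, Bowtie, Bowtie2, RSEM and build mm10, without versions, and which step gave the counts is not given in the sources used here. Counts were whole numbers and were used as deposited. They were filtered with filterByExpr (minimum count 10), scaled by TMM and fitted by group over all 49 mice with edgeR 4.0.16 (R 4.3.3, glmQLFit and glmQLFTest, two-sided, Benjamini-Hochberg over 18220 genes). Each p-value measures the spread between animals. A genotype by sex term was tested in the PBS mice (17363 genes). No test was run on a sum or list. Alternatives used DESeq2 1.42.0, limma 3.58.1, sva 3.50.0 and other scalings and filters, and the scripts were tested on simulated data. Lengths are median GENCODE transcript lengths, gene positions and start windows RefSeq's (GRCm38.p6). The members and lists were chosen with earlier results of these data known. Named were the 10 largest and 10 smallest changes in TDP-PBS, the 5 most abundant members, the genes of the stalk, 5S, duplicate, ubiquitin and outside-rule lists, the 3 smallest p between rNLS8 groups and the 2 largest rises and falls of each other list. Rpl21, Rpl26 and Rpl29 were singled out after their values were seen. Some genes that meet these rules are not reported here. Intervals are 95%.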

Additional observations from a re-analysis of the deposited data

Results flagged for a closer look

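In the groups of 10 mice, 41 of 162 values checked had a highest or lowest mouse that stood beyond Dixon's 95% limit, which chance does in about 1 in 20 groups. They are not independent, since nearly all come from the same pair of mice.

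In TDP-PBS, replicate 1 lay above the others beyond this limit for 24 members. Among its levels in CPM were 195 for Rpl13a, 131 for Rpl15, 86.6 for Rpl17, 132 for Rpl18, 46.4 for Rpl22, 91.2 for Rpl23, 80.3 for Rpl32, 65.2 for Rpl36, 516 for Rpl4, 129 for Rpl5, 27.8 for Rpl6l and 185 for Rpl7 in the large subunit. In the small subunit they included 36.4 for Rps12, 174 for Rps16, 84.3 for Rps19, 82.8 for Rps20, 42.7 for Rps27a, 4.81 for Rps27l, 204 for Rps28, 239.5 for Rps3 and 229.6 for Rps6. This male had 18346385 counts and a neuron marker sum of 6730 CPM, each the lowest of its group, and a summed member level of 11821 CPM, and the part of these in its levels was not tested.

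In TDP-10+12, replicate 4 lay above the others beyond the limit for the summed level (10374 CPM, with the next mouse at 9268 CPM) and for 14 members. Among its levels in CPM were 219 for Rpl13, 72.1 for Rpl17, 122 for Rpl18, 42.5 for Rpl22, 81.7 for Rpl27, 218 for Rpl41 and 209 for Rpl6 in the large subunit. In the small subunit they included 184 for Rps10, 56.1 for Rps13, 82.1 for Rps19, 70.3 for Rps20 and 113 for Rps27. Replicate 1 of that group did so for Rpl30 (102 CPM) and Rps24 (156 CPM).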

How the results depend on the processing

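Over the alternatives that kept the 80 members, the number called higher ranged from 69 to 73 in TDP-PBS, 66 to 74 in TDP-10+12 and 68 to 74 in TDP-15. In each, 0 were called lower. The median log2 fold change ranged from 0.43 (length offset) to 0.53 (library totals) in TDP-PBS, 0.39 to 0.50 in TDP-10+12 and 0.40 to 0.53 in TDP-15. Calls among rNLS8 groups and for the sex term stayed at 0. Some members with small changes gained or lost a call. Rps4x was called in TDP-10+12 with limma-voom (adjusted p = 0.0387), with library totals, with a length offset and with 2 surrogate variables. It was also called there with only the 2 groups fitted and with at least 10 counts required in every mouse. Leaving out the highest TDP-PBS and highest ctrl-PBS mouse gave that call too. With limma-voom, Rps27a (adjusted p = 0.0789) and Rpl10a (adjusted p = 0.0872) were no longer called in TDP-PBS. Without the highest TDP-PBS and highest ctrl-PBS mouse, an alternative chosen after seeing the data like the sums with pseudogenes, 70, 70 and 72 members were higher, and the median of TDP-10+12 against TDP-PBS was 0.008 and that of TDP-15 against TDP-PBS 0.04. The list widened by the 7 genes outside the name rule gave 75 genes higher in TDP-PBS, 72 in TDP-10+12 and 77 in TDP-15. These counts are not out of the 80 members alone. The wider list raised the mean summed level to 7129 CPM in ctrl-PBS, 9672 in TDP-10+12 and 9953 in TDP-15.

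Values near 0 changed sign, none of them called, and the cause was not tested. In TDP-PBS these were Rps24 with a length offset (-0.000938), Rps4l with limma-voom (-0.0294) and Rps7 with library totals (0.0461), limma-voom (0.00363) or summed with its pseudogenes (0.0658). In TDP-10+12 they were Rpl29 with limma-voom (-0.0119), Rps24 with a length offset (-0.0503) and Rps7 with library totals (0.0336). In TDP-15 they were Rpl36a with library totals (0.0607) or without the 2 mice (0.012), Rps24 with a length offset (-0.0293) and Rps7 summed with its pseudogenes (0.0193). Groups of 10 or more mice were not fitted with each mouse left out. No paired analysis was possible because each mouse is a separate animal and the labels give no replicate number shared between groups.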
